A study of Mus musculus with 16 samples.

Results

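The promoters of the mouse Forkhead box (Fox) genes described here were all baits (captured promoter fragments) of a promoter-capture Hi-C table with a name made of Fox, a letter and a digit, after splitting shared names and removing copy suffixes. The rule found 37 of 20017 baits, with 531 of 260860 listed contacts. The rule used names and no measured value. The cells were mouse embryonic stem cells (ESC, day 0), which the series text says were kept in 2i and Lif, and epiblast-like cells made from them (EpiLC, day 2), an in vitro counterpart of the epiblast after implantation. Each stage was taken in 4 lines: DNMT_KO, a triple knock-out of the DNA methyltransferase genes Dnmt1, Dnmt3a and Dnmt3b; DNMT_WT, its parent; TET_KO, a triple knock-out of the 5-methylcytosine oxidase genes Tet1, Tet2 and Tet3; and TET_WT, its parent. The labels give 2 replicates for each of the 8 groups, 16 samples in all. The sources used here do not give how many clones stand behind a line, or whether the replicates were separate cultures. Contact scores hold no RNA levels, so the labelled stages and the deleted genes could not be checked against expression.

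Fox genes encode transcription factors that share a DNA-binding fold, the forkhead or winged helix, and they specify or maintain many tissues of the embryo. FoxA factors can open compact chromatin ahead of endoderm genes, FoxO factors are held out of the nucleus when insulin and PI3K signalling activates Akt, and many others are switched on in small fields of the neural tube, mesoderm or placodes by enhancers that lie far from the gene. Promoter-capture Hi-C joins DNA fragments that lie close together in the nucleus and then enriches the products that contain a promoter fragment, so it lists the distant fragments that each promoter contacts.

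Each value is a CHiCAGO score made by the authors, a measure of how far the reads joining a pair of fragments exceed what distance and noise would give. The table holds 1 score per pair in each of 8 columns, 1 for each line and stage, and none per replicate. The columns therefore carry no SD, and the depth of each sample is unknown. A score of 5 is the usual limit for calling a contact, and each listed contact reached it in at least 1 column. Over the whole table, 100796 contacts in TET_KO EpiLC and 93568 in TET_KO ESC reached 5, the most of the 4 lines at each stage, against 87991 to 93930 in the other EpiLC columns and 83200 to 87554 in the other ESC columns. These totals moved with the TET comparisons below, and their part in those results was not tested.

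Coordinates are those of build GRCm38. Of the 37 bait fragments, 36 overlapped the RefSeq gene they are named for. The Foxk2 bait lay 3051 bp from Foxk2 and overlapped Narf. Several baits held a second protein-coding gene, so their contacts cannot be assigned to the Fox gene alone: the Foxs1 bait also held Dusp15 and Ttll9, the Foxf1a bait Mthfsd, the Foxr1 bait Upk2, the Foxj1 bait Rnf157, the Foxa1 bait Ttc6 and the Foxn4 bait Myo1h. Other Fox genes were not analysed here.

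The promoter sequences in these fragments were rich in CpG, the dinucleotide that the deleted enzymes methylate or oxidise. RefSeq (GRCm38.p6) gave a start site inside the bait for 24 of the genes, with 27 promoters in all. The 250 bases before the start held a median of 15 CpG, from 3 to 36, against 6 over the 32841 mouse promoters of the same table, and a median G and C content of 60.0% against 52.4%. The 6 promoters below are shown with CpG in capitals, all read 5′ to 3′ on the gene's strand. Foxp4 was called between the stages, Foxc1 and Foxo1 each had a called contact, Foxd2 was higher in TET_KO, Foxn3 came nearest to the threshold among the falls that did not pass, and Foxa1 holds a forkhead motif. No sequence is shown for Foxo4 and Foxs1, the other called promoters. They are Foxp4 (chr17:47924633-47924882, minus strand, 27 CpG), Foxc1 (chr13:31806396-31806645, plus strand, 29 CpG), Foxo1 (chr3:52268087-52268336, plus strand, 20 CpG), Foxa1 (chr12:57546112-57546361, minus strand, 21 CpG), Foxd2 (chr4:114908899-114909148, minus strand, 16 CpG) and Foxn3 (chr12:99450075-99450324, minus strand, 5 CpG).
Foxp4: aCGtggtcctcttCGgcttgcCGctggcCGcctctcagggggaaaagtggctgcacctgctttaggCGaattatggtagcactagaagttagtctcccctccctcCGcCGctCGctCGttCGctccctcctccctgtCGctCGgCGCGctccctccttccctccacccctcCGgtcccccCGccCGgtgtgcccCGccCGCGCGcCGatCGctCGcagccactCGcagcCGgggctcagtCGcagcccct
Foxc1: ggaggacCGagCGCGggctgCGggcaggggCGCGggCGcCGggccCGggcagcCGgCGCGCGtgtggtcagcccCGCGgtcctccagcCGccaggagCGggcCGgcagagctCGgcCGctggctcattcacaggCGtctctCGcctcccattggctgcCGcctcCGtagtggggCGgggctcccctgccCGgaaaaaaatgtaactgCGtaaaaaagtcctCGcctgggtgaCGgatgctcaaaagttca
Foxo1: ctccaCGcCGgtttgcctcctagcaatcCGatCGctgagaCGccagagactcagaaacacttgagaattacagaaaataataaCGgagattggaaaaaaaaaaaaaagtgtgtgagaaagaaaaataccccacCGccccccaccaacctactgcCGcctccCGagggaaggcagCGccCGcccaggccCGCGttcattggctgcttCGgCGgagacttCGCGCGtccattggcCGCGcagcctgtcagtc
Foxa1: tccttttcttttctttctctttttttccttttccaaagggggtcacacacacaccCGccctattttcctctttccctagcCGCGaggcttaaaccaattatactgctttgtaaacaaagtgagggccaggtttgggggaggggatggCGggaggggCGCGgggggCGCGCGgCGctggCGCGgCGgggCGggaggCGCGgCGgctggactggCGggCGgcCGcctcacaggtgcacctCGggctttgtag
Foxd2: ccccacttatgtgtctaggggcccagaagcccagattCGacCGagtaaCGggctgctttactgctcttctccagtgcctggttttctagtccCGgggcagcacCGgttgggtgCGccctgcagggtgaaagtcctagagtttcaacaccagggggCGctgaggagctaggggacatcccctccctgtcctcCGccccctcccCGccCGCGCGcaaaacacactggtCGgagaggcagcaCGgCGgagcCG
Foxn3: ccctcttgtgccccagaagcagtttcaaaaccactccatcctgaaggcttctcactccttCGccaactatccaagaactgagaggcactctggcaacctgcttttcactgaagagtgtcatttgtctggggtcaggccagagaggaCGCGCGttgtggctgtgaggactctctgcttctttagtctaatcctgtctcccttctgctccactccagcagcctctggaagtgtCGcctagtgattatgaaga
The first 5 sequences hold 16 to 29 CpG each, and that of Foxn3 holds 5, of which several stand in a short run. The forkhead motif TGTTTAC, searched on both strands, was in 1 of the 27 Fox promoters (3.70%), that of Foxa1, and in 3.17% of all promoters of the table. The match describes these letters only.

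Fox promoters made few contacts with other promoters and many with gene-free DNA. The median Fox bait had 9 listed contacts, against 8 over all baits, and the bait fragment was longer, with a median of 7929 bp against 5837 bp. The median contact of Fox baits spanned 367 kb, against 275 kb over all baits, and 50 of the 531 (9.42%) lay beyond 1 Mb on the same chromosome, against 7.44% over all baits. Foxj2 alone had 24 of these 50, so this share rests on few baits and is not a trait of Fox promoters at large. Only 29 Fox contacts (5.46%) joined another bait, against 9.12% over all baits, and 1 (0.188%, against 1.26%) joined another chromosome. Of the 501 contacts on the same chromosome with a fragment that is no bait, 335 (66.9%) ended in a fragment that overlapped no protein-coding gene, against 43.9% over all baits. These shares have no test, since contacts of a promoter are not independent and neighbouring fragments share reads.

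Most contacts of Fox promoters reached 5 in some columns and not in others. All 8 columns reached 5 in 53 contacts (9.98%, against 6.7% over all baits), among them 11 of Foxo3, 8 of Foxo1 and 6 each of Foxd2 and Foxe3. EpiLC columns alone reached 5 in 144 contacts (27.1%, against 29.3%), ESC columns alone in 126 (23.7%, against 27.5%), and a single column in 212 (39.9%, against 44.0%). No contact joined 2 Fox baits. Neighbouring Fox genes instead shared far fragments. Foxd2 (chr4:114906150-114909418) and Foxe3 (chr4:114920366-114927431), a regulator of lens development, contacted 17 fragments in common, 65.4% of the Foxd2 contacts and 73.9% of the Foxe3 contacts. Foxf2 and Foxq1 shared 5 fragments, 22.7% of the Foxf2 contacts and 83.3% of the Foxq1 contacts, and Foxc2 and Foxf1a shared 1 fragment, 4.17% of the Foxc2 contacts and 5.26% of the Foxf1a contacts.

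For the comparison of EpiLC with ESC, a promoter's value was the mean of its contacts on the asinh scale, which acts like a natural log for high scores, after the columns were given the same distribution (quantile normalisation). A difference of 0.69, the natural log of 2, is a doubling for high scores. Promoters with at least 3 contacts scored in all columns were tested with limma over the 4 lines, 15677 in all, of which 30 were Fox promoters. Foxk1, Foxk2, Foxn4, Foxo6, Foxp1, Foxp2 and Foxp3 had fewer such contacts and were not tested. Differences are given as EpiLC minus ESC with their limma SE. That SE is moderated, so it draws on the spread of all promoters as well as on the 4 lines. Adjusted p is Benjamini-Hochberg over all promoters in limma. The knock-out lines derive from the wild-type lines, so the 4 lines are not fully independent.

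Most Fox promoters did not pass the test between the stages, and the few that did moved both ways. The contacts of Foxo4 and Foxp4 rose in EpiLC and those of the bait with Foxs1 fell. These are 2 rises among the 30 Fox promoters, where 3.73% of all promoters rose, and 1 fall, where 5.14% of all promoters fell. In either direction 3 were called (10.0%), where 8.87% of all promoters were. At an unadjusted p under 0.05 stood 9 of the 30 (30.0%), against 27.6% of all promoters. The 4 EpiLC values lay wholly above the 4 ESC values in Foxo4 alone (6.08% of all promoters) and wholly below them in Foxf2, Foxn3 and Foxs1 (7.48% of all promoters). The median difference was 0.01 over the Fox promoters and -0.01 over all promoters. The shares of called Fox promoters lay near those of all promoters.

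**Figure D1:**
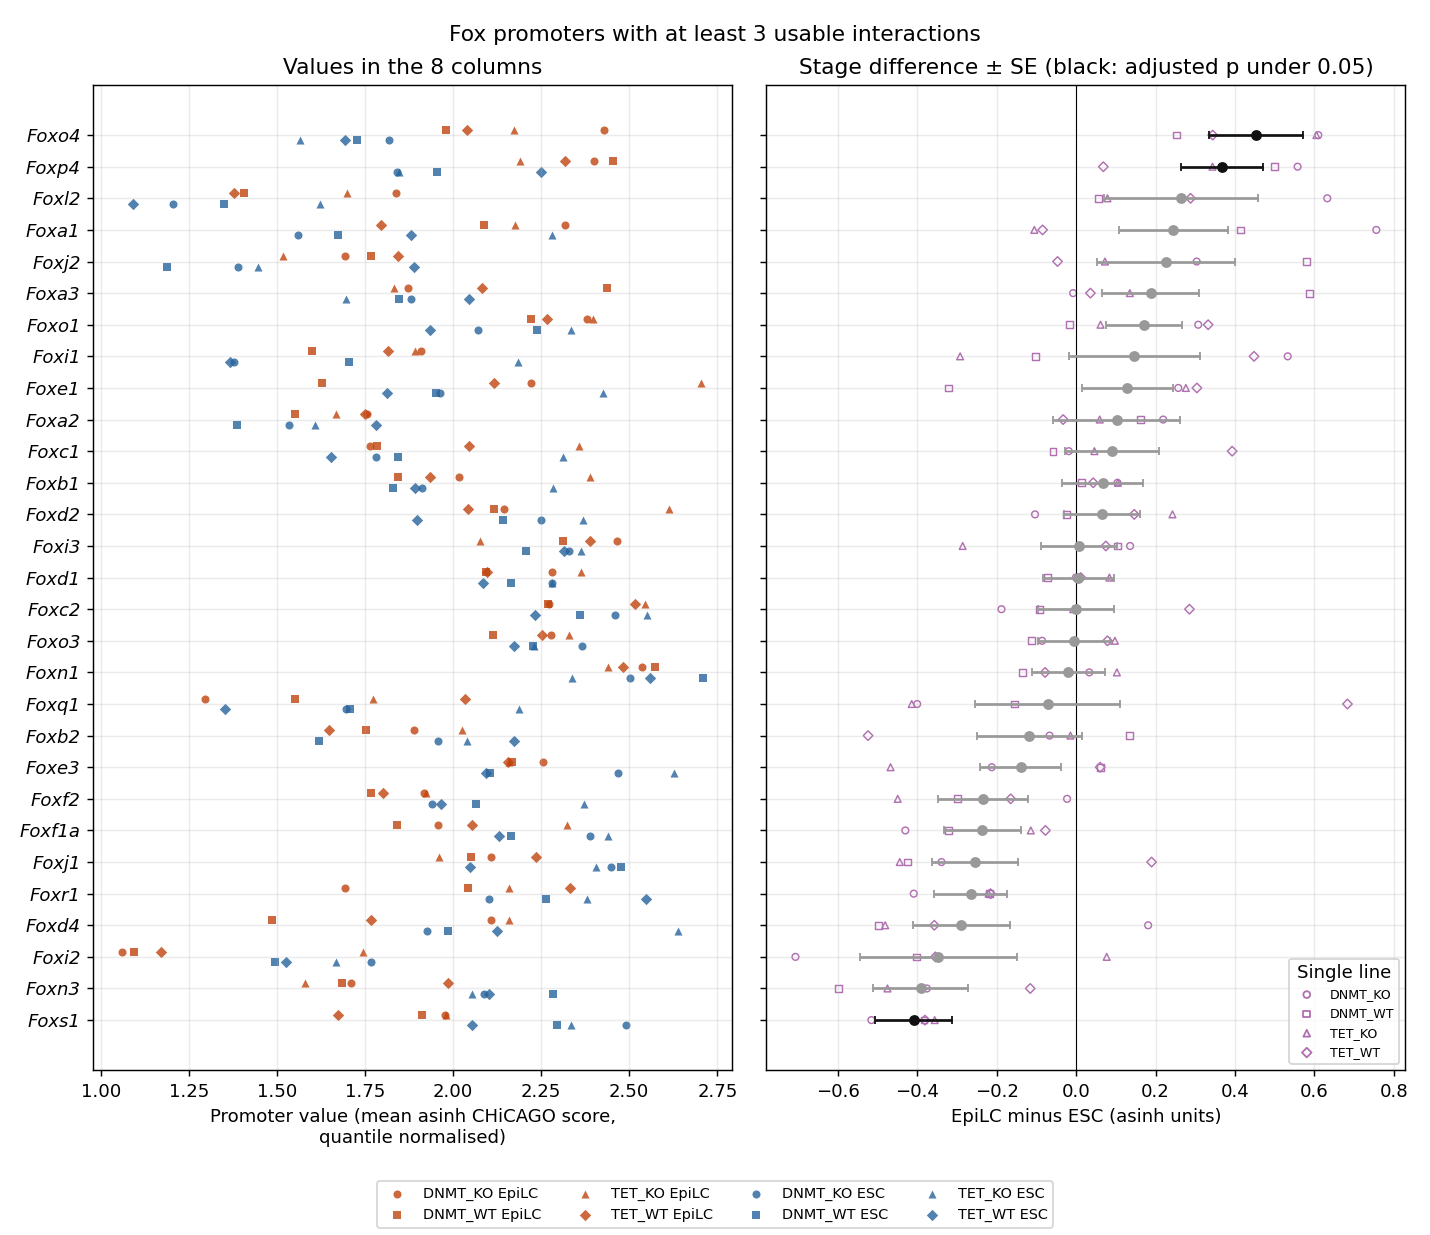
Promoter values (mean asinh score over listed contacts, quantile normalised) of 29 of the Fox promoters tested, EpiLC in orange and ESC in blue. There is 1 symbol per line and no error bar, since each column is a single value. The right panel gives the stage difference, EpiLC minus ESC, with its moderated limma SE as a bar. Each line is an open symbol, and black marks adjusted p under 0.05. Foxo4 and Foxp4 stand at the end with the largest rises and Foxs1, Foxn3 and Foxi2 at the end with the largest falls.

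Foxo4 encodes a FoxO factor that Akt phosphorylates and excludes from the nucleus. Its bait (chrX:101253753-101256656) had 17 contacts within 176 kb. Its value was 2.43 in DNMT_KO, 1.98 in DNMT_WT, 2.17 in TET_KO and 2.04 in TET_WT EpiLC, against 1.82 in DNMT_KO, 1.73 in DNMT_WT, 1.57 in TET_KO and 1.69 in TET_WT ESC. Every EpiLC column was above every ESC column, with DNMT_KO EpiLC the highest. The difference was 0.45 ± 0.12 (SE, n = 4 lines), with a limma adjusted p of 0.0286. DNMT_KO EpiLC had 14 of the 17 contacts at 5 or more, and the other EpiLC columns had 4 to 6, against 0 or 1 in the ESC columns. Of the 17 contacts, 15 were numerically higher in EpiLC, including all 7 that overlap Snx12, the gene of a sorting nexin, 101 to 123 kb away. A contact is listed only where some column reached 5, and 11 of the 17 reached it in a single column. With DNMT_KO EpiLC at 5 in 14, this tally is not independent of the listing and gives no separate support to the test. The contact at 123 kb in Snx12 scored 7.56 in DNMT_KO, 7.40 in DNMT_WT, 9.86 in TET_KO and 7.28 in TET_WT EpiLC, against 5.63, 4.44, 5.80 and 4.86 in the same lines as ESC. The Foxo4 fragment was also the far end of contacts of 5 other promoters. That of Med12, a Mediator subunit gene 19.2 kb away, scored 5.30 to 6.61 in EpiLC and 4.53 to 5.19 in ESC, with no overlap. Those of Slc7a3, Zmym3, SNORA72.3 and Itgb1bp2 overlapped between the stages, and that of Itgb1bp2 scored 0.624 to 2.17 in EpiLC and 0.252 to 5.98 in ESC.

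Foxp4 encodes a FoxP repressor of neural and epithelial tissues. Its bait (chr17:47922388-47928164) had 14 contacts, 10 of them with gene-free fragments and 1 within the Foxp4 gene itself. Its value was 2.40 in DNMT_KO, 2.46 in DNMT_WT, 2.19 in TET_KO and 2.32 in TET_WT EpiLC, against 1.84 in DNMT_KO, 1.95 in DNMT_WT, 1.85 in TET_KO and 2.25 in TET_WT ESC. Each line was higher as EpiLC, but TET_WT ESC lay above TET_KO EpiLC, so the stages overlapped. The difference was 0.37 ± 0.10 (SE, n = 4 lines), with a limma adjusted p of 0.0357. Numerically, 13 of the 14 contacts were higher in EpiLC. The strongest, 173 kb away, scored 12.2 in DNMT_KO, 13.2 in DNMT_WT, 10.3 in TET_KO and 6.97 in TET_WT EpiLC, against 3.21, 9.22, 5.11 and 9.09 in the same lines as ESC.

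Foxs1 encodes a forkhead factor of neural crest derivatives and pericytes, and shares its bait (chr2:152932636-152953420) with Dusp15 and Ttll9. Its value was 1.98 in DNMT_KO, 1.91 in DNMT_WT, 1.98 in TET_KO and 1.67 in TET_WT EpiLC, against 2.49 in DNMT_KO, 2.29 in DNMT_WT, 2.34 in TET_KO and 2.05 in TET_WT ESC. Every EpiLC column was below every ESC column. The value fell by 0.41 ± 0.10 (SE, n = 4 lines), with a limma adjusted p of 0.0202. Of its 11 contacts, 2 were numerically higher in EpiLC. The strongest joined the promoter of H13, the gene of signal peptide peptidase, 273 kb away, and scored 7.71 in DNMT_KO, 5.65 in DNMT_WT, 7.90 in TET_KO and 7.76 in TET_WT EpiLC, against 14.8, 13.3, 11.4 and 13.8 in the same lines as ESC. That contact did not overlap between the stages, yet on its own it had a limma adjusted p of 0.0702.

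With each line left out in turn, the difference was 0.40 to 0.52 for Foxo4, 0.30 to 0.47 for Foxp4 and -0.43 to -0.37 for Foxs1. Those fits called fewer promoters over the whole table, 12 to 273 rises and 13 to 342 falls, against 585 and 806 with all lines. Foxo4 kept an adjusted p under 0.05 without DNMT_WT alone among the 4 lines left out, Foxp4 without TET_WT alone, and Foxs1 in no such fit, where its adjusted p ran from 0.05002 to 0.0995.

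**Figure D2:**
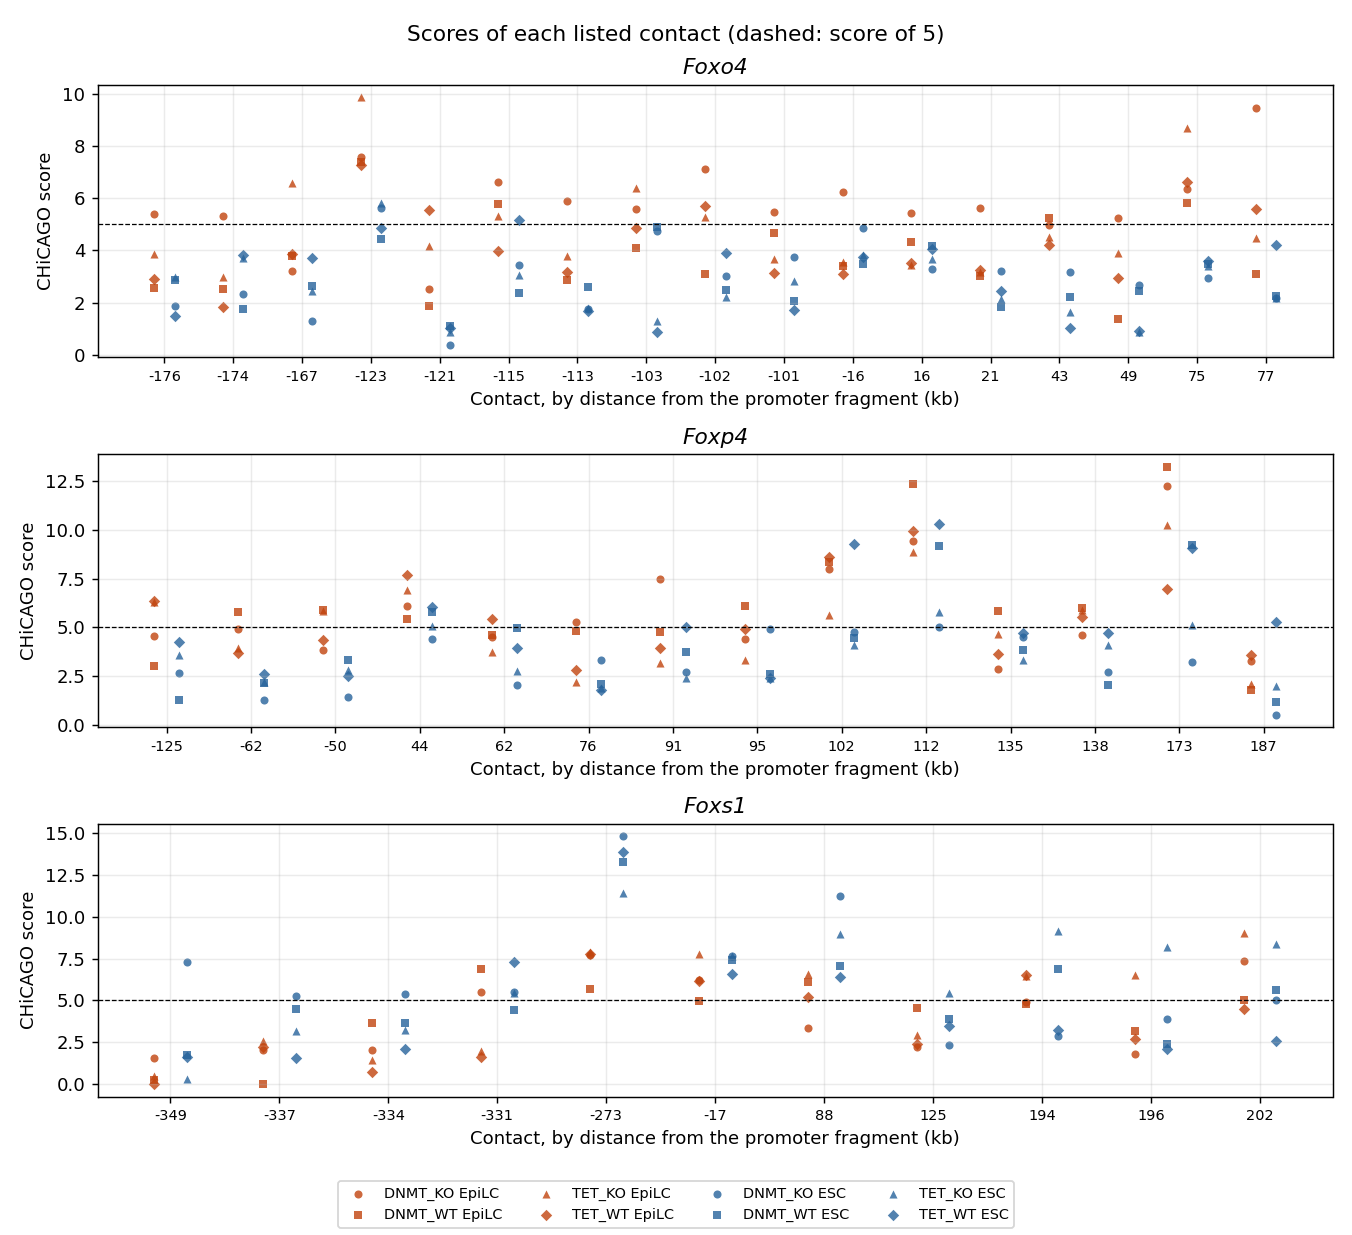
CHiCAGO score of each listed contact of Foxo4, Foxp4 and the Foxs1 bait, placed in order of distance from the promoter fragment in kb (evenly spaced, negative toward lower coordinates), EpiLC in orange and ESC in blue with 1 symbol per line. The dashed line marks a score of 5, which most Foxo4 contacts reached in EpiLC columns only. Of the 17 Foxo4 contacts, 11 reached it in a single column, and DNMT_KO EpiLC had 14 at 5 or more. The H13 contact of Foxs1 at -273 kb was above 11 in all ESC columns.

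In the neural and sensory group 13 genes had a bait, 11 were tested, 1 rose (Foxp4) and none fell, with a median difference of 0.01. Over all promoters 3.73% rose and 5.14% fell, and a single call in so small a group is no trait of the group. Foxi2 had -0.35 ± 0.20 (adjusted p 0.267), and Foxd4 had -0.29 ± 0.12 (adjusted p 0.134).

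In the mesoderm, vessel and somite group 6 promoters were tested, none rose and 1 fell (Foxs1), with a median of -0.15. Here too the group is small, and 3.73% of all promoters rose and 5.14% fell. Foxf2 and Foxf1a, genes of the gut and lung mesenchyme, had -0.23 ± 0.11 (adjusted p 0.191) and -0.24 ± 0.10 (adjusted p 0.129). Foxc1 and Foxc2, regulators of somites and vessels, had 0.09 ± 0.12 and -0.00 ± 0.10. None of these 4 passed the test.

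All 3 endoderm pioneers had positive differences and none passed: 0.25 ± 0.14 for Foxa1, 0.19 ± 0.12 for Foxa3 and 0.10 ± 0.16 for Foxa2. Foxj1, the master gene of motile cilia, had -0.25 ± 0.11 (adjusted p 0.140), and Foxn3, listed with it, had -0.39 ± 0.12 (adjusted p 0.0503). Foxn3 was lower as EpiLC in all 4 lines, at 1.58 to 1.99 in EpiLC and 2.05 to 2.28 in ESC. Among the genes of gonad, thyroid and germ cells, Foxl2, needed in the ovary, had 0.26 ± 0.19 and Foxr1 had -0.27 ± 0.09 (adjusted p 0.394 and 0.0745). Foxj2 had 0.23 ± 0.17 (adjusted p 0.416). The FoxO genes linked to pluripotency, Foxo1 and Foxo3, had 0.17 ± 0.10 (adjusted p 0.254) and -0.01 ± 0.09 (adjusted p 0.979).

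Genes that act with Fox factors were examined the same way, where 3.73% of all promoters rose and 5.14% fell. Of 8 tested promoters of the Nodal pathway, which works through Foxh1, none rose and none fell. Of 8 tested promoters of the PI3K and Akt pathway upstream of FoxO, 2 rose and none fell. They were Akt2, with 0.52 ± 0.10 (limma adjusted p 0.0118), and Irs1, with 0.45 ± 0.12 (limma adjusted p 0.0293). Other families of developmental regulators gave 0 rises and 0 falls among 8 Pax promoters and among 8 Tbx promoters, and 1 rise and 0 falls among 13 Sox promoters.

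Single contacts were tested over the 244865 that lay on 1 chromosome and had all scores, of which 523 belonged to Fox promoters. Of these 2 rose, where 0.204% of all contacts rose, and none fell, where 0.109% of all contacts fell. An unadjusted limma p under 0.05 was reached by 83 (15.9%), against 16.6% of all contacts.

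Both called contacts ended in gene-free fragments toward the far end of a long field of contacts. Each field lay wholly on 1 side of its bait. That held for 29.5% of all baits with at least 10 contacts on 1 chromosome, and for 6 of 17 such Fox baits (35.3%). Foxo1 (bait chr3:52266637-52272771) encodes a FoxO factor that takes part in the control of pluripotency genes. It had the most contacts of the family, 60, all toward higher coordinates and 57 of them gene-free. Its contact 707 kb away (chr3:52975628-52978541) scored 15.8 in DNMT_KO, 6.76 in DNMT_WT, 8.53 in TET_KO and 11.2 in TET_WT EpiLC, against 5.12 in DNMT_KO, 3.50 in DNMT_WT, 3.51 in TET_KO and 4.87 in TET_WT ESC. The stages did not overlap, and the difference was 0.85 ± 0.16 (SE, n = 4 lines; limma adjusted p 0.0373). Its 6 contacts between 700 and 800 kb averaged 9.80 in DNMT_KO, 5.91 in DNMT_WT, 5.78 in TET_KO and 7.41 in TET_WT EpiLC, against 2.35 to 3.59 in ESC. In the 4 contacts between 300 and 400 kb the order was the opposite, with column means of 2.44 to 2.64 in EpiLC and 2.73 to 5.62 in ESC. Nearer still, the 2 contacts between 200 and 300 kb were higher in EpiLC, with means of 3.34 to 5.15 against 2.32 to 2.91 in ESC. In the 20 contacts between 500 and 600 kb the means were 5.49 to 7.81 in EpiLC and 4.69 to 7.17 in ESC, which overlap. Those between 400 and 500 kb and between 600 and 700 kb overlapped too.

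Foxc1 (bait chr13:31800182-31809419) had 55 contacts, all toward higher coordinates, 22 of them in the neighbouring gene Gmds. Its contact 858 kb away (chr13:32662368-32663567) scored 9.65 in DNMT_KO, 7.76 in DNMT_WT, 11.4 in TET_KO and 2.91 in TET_WT EpiLC, against 0.335 in DNMT_KO, 2.67 in DNMT_WT, 3.52 in TET_KO and 0.294 in TET_WT ESC. Each line was higher as EpiLC, but TET_WT EpiLC lay below TET_KO ESC. The difference was 1.45 ± 0.29 (SE, n = 4 lines; limma adjusted p 0.0396). Neither the Foxo1 nor the Foxc1 contact kept an adjusted p under 0.05 when any of the 4 lines was left out. Those fits called only 0 to 3 rises over all contacts, against 500 with all lines.

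**Figure D3:**
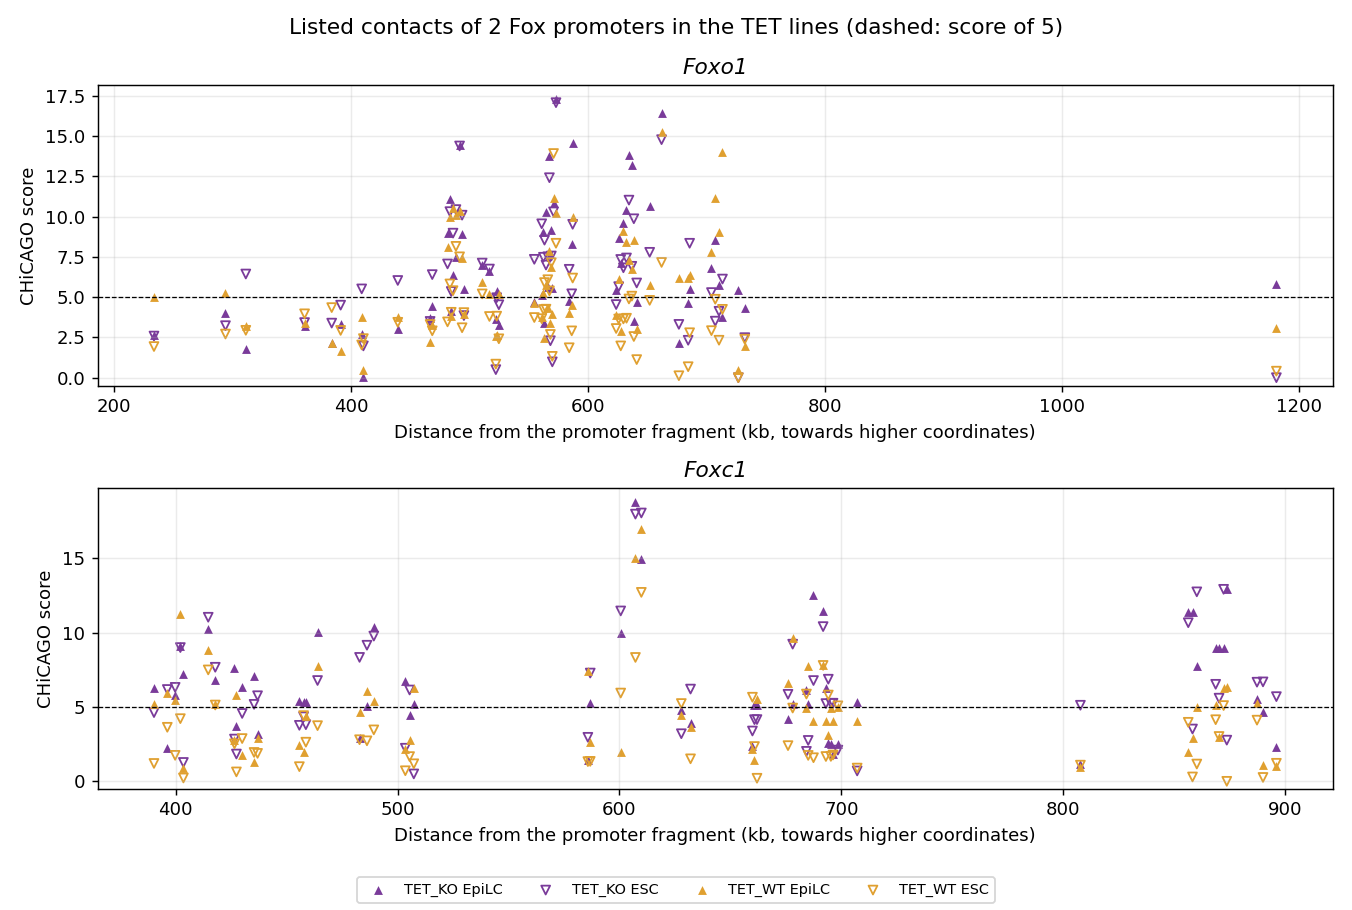
CHiCAGO score of each listed contact of Foxo1 and Foxc1 in the TET lines against the distance from the promoter fragment in kb, with TET_KO in purple and TET_WT in amber, EpiLC as filled and ESC as open triangles, and a dashed line at 5. Scores of TET_KO ESC lie mostly above those of TET_WT ESC along both fields.

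Further contacts with large differences in either direction did not pass. Higher in EpiLC were Foxc1 contacts 874 kb away (1.35 ± 0.33, adjusted p 0.0726) and 685 kb away (1.24 ± 0.27, adjusted p 0.0570), and a Foxo1 contact 711 kb away (1.21 ± 0.31, adjusted p 0.0856). The stages overlapped in the first of these and not in the other two. Lower in EpiLC, with adjusted p of 0.178 to 0.270, were Foxo1 contacts 411 kb (-1.18 ± 0.44) and 384 kb away (-0.98 ± 0.34), a Foxi2 contact 945 kb away (-1.20 ± 0.43) and a Foxi1 contact 271 kb away (-0.98 ± 0.43). Of these 4 the stages overlapped in that of Foxi2. A Foxn3 contact 353 kb away scored 1.05 to 3.74 in EpiLC and 4.55 to 5.34 in ESC (-0.99 ± 0.29, adjusted p 0.126), with no overlap. A Foxa2 contact 224 kb away scored 1.05 to 2.67 in EpiLC and 3.24 to 5.43 in ESC (-1.05 ± 0.33, adjusted p 0.142), also with no overlap.

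Where Fox promoters met other promoters, 3 of 26 partners with a gene name belonged to the listed families of developmental regulators (11.5%, against 0.688% over all promoter-to-promoter contacts). The 3 were Foxa1 with Pax9, Foxa2 with Pax1 and Foxl2 with Sox14. Pax9 and Pax1 are related regulators of the pharyngeal pouches and the vertebral column. The Foxa1 to Pax9 contact, 850 kb long, scored 18.8 in DNMT_KO, 6.73 in DNMT_WT, 10.5 in TET_KO and 11.8 in TET_WT EpiLC, against 0 in DNMT_KO, 6.04 in DNMT_WT, 7.93 in TET_KO and 5.92 in TET_WT ESC. Each line was higher as EpiLC, the stages overlapped, and the limma adjusted p was 0.148. The Foxa2 to Pax1 contact, 687 kb long, scored 7.99 in DNMT_KO, 10.1 in DNMT_WT, 2.07 in TET_KO and 5.08 in TET_WT EpiLC, against 4.83, 1.05, 2.27 and 3.26 in the same lines as ESC (adjusted p 0.262). Further along, a Foxa2 contact with a fragment in Nkx2-2, a ventral neural tube and pancreas regulator 864 kb away, scored 4.29, 5.40, 0.127 and 1.24 in DNMT_KO, DNMT_WT, TET_KO and TET_WT EpiLC, and 0, 0, 0 and 0.142 in the same lines as ESC (adjusted p 0.312). The Foxl2 to Sox14 contact reached 5.46 in DNMT_KO EpiLC and was listed at 0 or 0.0994 in the other columns, so it rests on a single column.

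Other promoters with many contacts met named genes. Foxo3 (40 contacts) met Sesn1, a stress-response gene, in 6 fragments 447 to 459 kb away. All 6 reached 5 in each EpiLC column, against 3 in DNMT_KO, 5 in DNMT_WT, 6 in TET_KO and 6 in TET_WT ESC. All 6 were numerically higher in EpiLC, and none passed the test. Another 13 Foxo3 contacts lay in Armc2, of which 4 were higher in EpiLC. Foxj2 (42 contacts) had 24 contacts beyond 1 Mb, reaching Pex5, Clstn3 and Lpcat3, and 6 contacts 103 to 167 kb away, with 1 of them in the pluripotency gene Nanog. These 6 averaged 5.50 in DNMT_KO, 6.87 in DNMT_WT, 4.65 in TET_KO and 6.73 in TET_WT EpiLC, against 2.82, 3.72, 4.03 and 7.76 in the same lines as ESC. The means of the other 3 ESC columns were below all EpiLC means, and that of TET_WT ESC was the highest of the 8. When contacts beyond 1 Mb were left out, the Foxj2 difference turned to -0.02.

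For the knock-outs each comparison subtracts 2 columns, so it has no replicate check and no test. Promoters were counted where the difference reached 0.69 in size. Most Fox promoters had higher values in TET_KO than in TET_WT. The median difference over the 30 was 0.12 in EpiLC and 0.31 in ESC, against 0.01 and -0.00 over all promoters, and the ESC median ran from 0.29 to 0.38 under the other scalings and the limit to contacts within 1 Mb. Other families of developmental regulators had medians above 0 in some of these columns: 0.27 in EpiLC and 0.25 in ESC over the 8 Pax promoters, 0.29 and -0.04 over the 8 Tbx promoters, and 0.02 and 0.13 over the 13 Sox promoters. Differences between families were not tested. Past 0.69 in ESC stood 2 Fox promoters (6.67%, where 3.37% of all promoters were that much higher), Foxq1 with 0.84 and Foxi1 with 0.82, and none was that much lower (2.25% of all promoters). Foxq1, with 6 contacts, had the opposite sign in EpiLC (-0.26), and Foxi1, with 7 contacts, had 0.08 there. In EpiLC none was that much higher (3.6% of all promoters) or lower (2.54%). Between the parental lines, TET_WT minus DNMT_WT, 1 Fox promoter in ESC was that much higher (2.16% of all promoters) and none lower (1.95%), and none was in EpiLC (2.3% and 2.58%). At both stages 18 of the 30 Fox promoters (60.0%) were higher in TET_KO, where 32.6% of all promoters were, and 7 (23.3%) were lower, where 31.7% of all were. Neighbours that share far fragments, such as Foxd2 and Foxe3, were counted separately, though their values are not independent. TET_KO was the highest of the 4 ESC columns in 16 (53.3%, where 26.8% of all were) and of the 4 EpiLC columns in 15 (where 31.2% of all were).

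The numbers of contacts at 5 or more ran the same way, but they come from the same listed scores and are no separate evidence. Contacts also enter the list through TET_KO, the line with the most contacts at 5 or more over the whole table. Fox promoters had 268 contacts at 5 or more in TET_KO EpiLC, against 229 in TET_WT EpiLC, and 274 in TET_KO ESC, against 172 in TET_WT ESC. The DNMT_KO and DNMT_WT columns had 201 and 169 in EpiLC and 164 and 173 in ESC. The ESC ratio of TET_KO to TET_WT was 1.59 for Fox promoters and 1.08 over all promoters, and it was 1.38 for Fox promoters without Foxc1 and Foxo1. In EpiLC the ratio was 1.17 for Fox promoters and 1.07 over all. Contacts at 5 or more in TET_KO and under 3 in TET_WT numbered 68 in ESC (13.0%, where 6.91% of all contacts were) and 49 in EpiLC (9.37%, where 7.05% were). The reverse held for 22 contacts in ESC (4.21%, where 5.03% were) and 25 in EpiLC (4.78%, where 5.62% were). The 68 came from 21 promoters, with 17 from Foxc1 and 10 from Foxo1, and 41 of the 408 contacts of the other promoters were of this kind.

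Foxe1, a thyroid regulator, had the largest mean difference of both stages in the TET lines. Its value was 2.70 in TET_KO and 2.12 in TET_WT EpiLC, and 2.43 in TET_KO and 1.81 in TET_WT ESC, differences of 0.59 and 0.61. Its contact 147 kb away scored 13.2 in TET_KO and 8.04 in TET_WT EpiLC, and 7.37 in TET_KO and 2.74 in TET_WT ESC. Both stages moved the same way. Foxd2 had differences of 0.57 in EpiLC and 0.47 in ESC, Foxc1 0.31 and 0.66, and Foxi1 0.08 and 0.82. The strongest contact of the family was in this set: a gene-free fragment 242 kb from Foxd2 scored 23.3 in TET_KO and 13.2 in TET_WT EpiLC, and 19.5 in TET_KO and 11.5 in TET_WT ESC. The 18 Foxd2 contacts between 200 and 300 kb averaged 11.5 in TET_KO and 7.53 in TET_WT EpiLC, and 10.1 in TET_KO and 5.99 in TET_WT ESC. The DNMT lines averaged 6.14 and 6.92 there in EpiLC and 7.72 and 8.03 in ESC, below TET_KO at both stages. Among the promoters lower in TET_KO at both stages, the largest mean differences were those of Foxj2, Foxa3, Foxp4, Foxn3 and Foxr1. Foxj2 had -0.32 in EpiLC and -0.44 in ESC, Foxa3 -0.25 and -0.35, and Foxp4 -0.13 and -0.40. Foxn3 had -0.41 and -0.05, and Foxr1 -0.17 and -0.17.

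The TET differences were set beside the CpG numbers in the 21 tested Fox promoters with a start site in the bait. Their median TET_KO minus TET_WT difference in ESC was 0.14, and that of the 9 without one was 0.36, so the CpG classes leave out many of the promoters with large differences. Among the 21, the median TET_KO minus TET_WT difference in ESC was 0.06 in the 13 with 15 or more CpG, 0.07 in the 6 with 5 to 14, and 0.48 in the 2 with fewer. Over all promoters the medians in these classes were -0.03, -0.01 and 0.02.

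**Figure D4:**
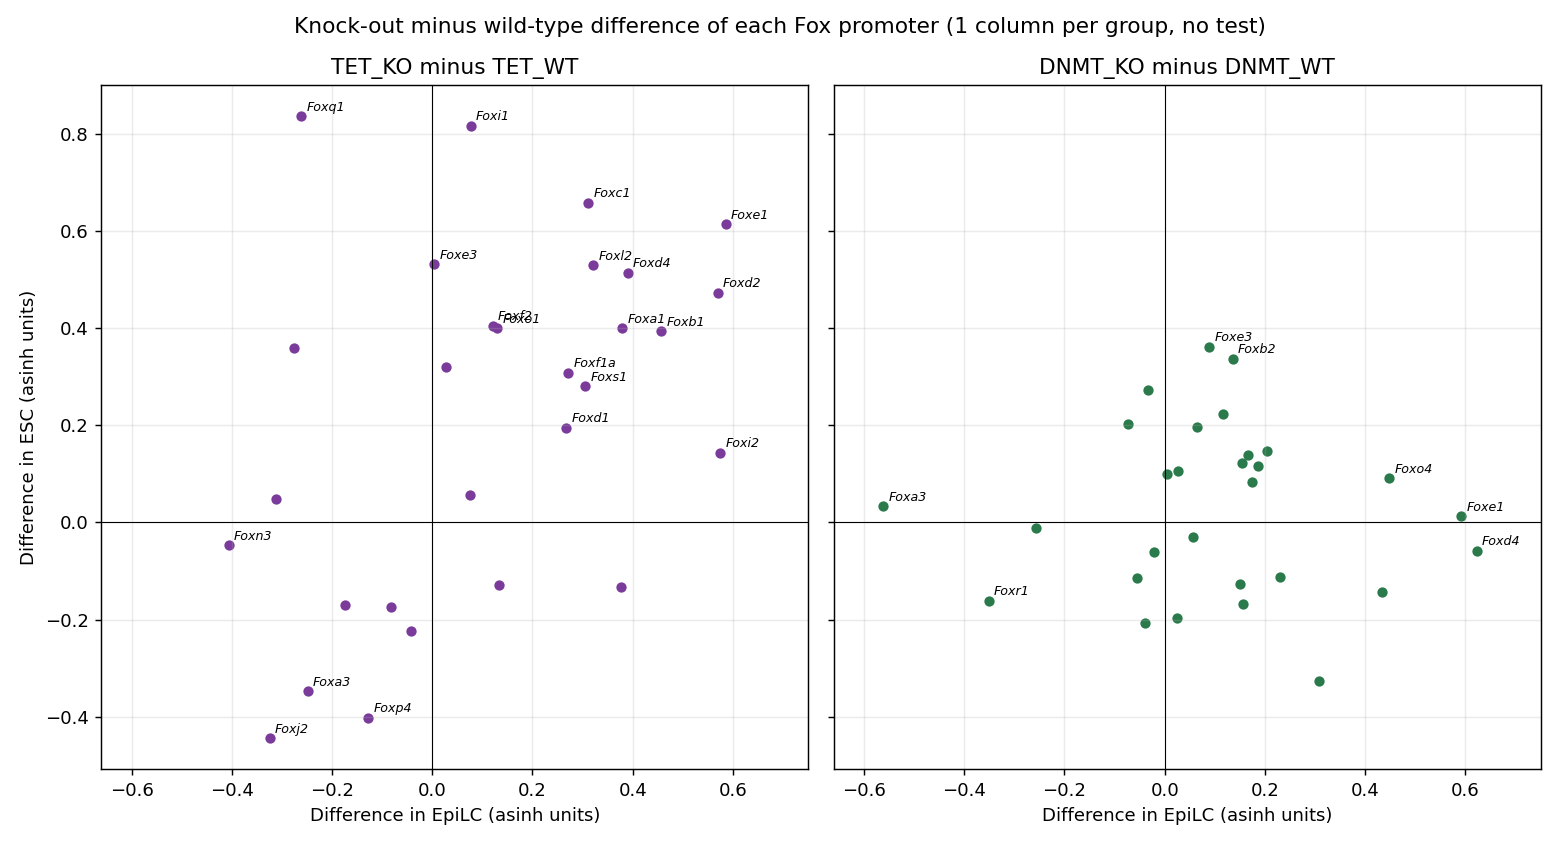
Knock-out minus wild-type difference of 29 tested Fox promoters (asinh scale, no error since each column is a single value), in EpiLC on the horizontal axis and in ESC on the vertical axis, for the TET lines and the DNMT lines. In the TET lines 17 of the 29 promoters lie above 0 on both axes and 7 below 0 on both, and in the DNMT lines 13 and 5 do.

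The DNMT lines showed a smaller median difference than the TET lines in ESC and a similar one in EpiLC. The median over the 30 Fox promoters was 0.12 in EpiLC and 0.02 in ESC for DNMT_KO minus DNMT_WT, against 0.01 and -0.00 over all promoters. The EpiLC differences ran from -0.56 to 0.62 in the DNMT lines and from -0.41 to 0.59 in the TET lines. None of the DNMT differences reached 0.69 in EpiLC (1.35% of all promoters were that much higher and 1.15% lower) or in ESC (2.09% higher and 2.14% lower). At both stages 13 Fox promoters (43.3%) were higher in DNMT_KO, where 23.5% of all promoters were, and 5 (16.7%) were lower, where 22.4% of all were. Contacts at 5 or more in DNMT_KO and under 3 in DNMT_WT numbered 29 in EpiLC (5.54%, where 4.74% of all contacts were) and 21 in ESC (4.02%, where 5.74% were), and the reverse held for 21 in EpiLC (4.02%, where 4.62% were) and 20 in ESC (3.82%, where 7.13% were).

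Among promoters with at least 5 contacts and 1 sign at both stages, Foxe1 and Foxo4 had the largest mean differences in the DNMT lines. Those of Foxe1 were 0.59 in EpiLC and 0.01 in ESC, and those of Foxo4 were 0.45 and 0.09. Foxb2 had 0.14 and 0.34, Foxe3 0.09 and 0.36, and Foxa2 0.20 and 0.15. Under the same limits, Foxr1, Foxq1, Foxp4 and Foxc1 were lower in DNMT_KO. Foxr1 had -0.35 in EpiLC and -0.16 in ESC, Foxq1 -0.26 and -0.01, Foxp4 -0.06 and -0.11, and Foxc1 -0.02 and -0.06. Higher in both knock-outs at both stages were 9 Fox promoters (30.0%, where 7.56% of all promoters were): Foxb1, Foxc2, Foxd1, Foxd2, Foxe1, Foxe3, Foxf1a, Foxo3 and Foxs1. The neighbours Foxd2 and Foxe3 shared 17 far fragments, so they are not separate observations. Lower in both at both stages were 3 (10.0%, where 6.77% of all were): Foxn1, Foxp4 and Foxr1. The residual SD of the stage fit, after line and stage and moderated by limma, was 0.16 for Foxe1 and 0.13 for Foxr1. Being moderated, it draws on the spread of all promoters and is not the scatter of these columns alone. It leaves out constant differences between lines, which a knock-out minus wild-type difference contains, so it gives no error for single differences. It holds no repeat of a line at a stage.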

How the data were processed

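The authors deposited 1 table of CHiCAGO scores, with 1 column for each line and stage. The submitters' processing notes name Trim Galore 0.6.5, cutadapt 2.3 and the build GRCm38. Per the labels, chromatin was cut with HindIII. Not given in the sources used here are the aligner, the CHiCAGO version and how replicates were combined. Precision per column is therefore unknown. The SE and p-values rest on the spread between lines, which limma moderates toward that of all promoters or contacts fitted.

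From the deposited scores, asinh values were quantile normalised between columns over contacts with all 8 scores (15344 of 260860 lacked at least 1, of which 8 were of Fox baits). Promoter means and single contacts were fitted with limma 3.58.1 in R 4.3.3 (lmFit, eBayes with a trend, line as block) and Benjamini-Hochberg adjustment at 0.05 over the whole table. Tested on simulated data for the 15677 promoters, the fit found 11 of 100 promoters changed by 0.5 and 59 of 100 changed by 1, with 1 false call. No other promoters were changed there, whereas 1391 were called in the real fit. The adjusted threshold was therefore stricter in the simulation, and its rates do not carry over. How many changes near 0.5 were missed is unknown.

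Named promoters were those called, the 6 largest differences each way, and in each knock-out the 5 largest each way with at least 5 contacts and 1 sign at both stages. Named contacts were those called, the 6 largest each way within 1 Mb, and those of the 6 promoters with most contacts; contacts with other regulators, Foxp4, Foxs1, Foxo4, Foxd2 and Foxe1 contacts were chosen after their values were seen. A promoter covered by these rules is counted but not reported here. The members and lists were chosen with earlier results of these data known. Alternatives were other scalings, other minimum contact numbers, a count at 5 or more, contacts within 1 Mb, the wild-type lines only and each line left out. Genes and promoter sequences are RefSeq's for GRCm38.p6, and distances run between fragment centres.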

Additional observations from a re-analysis of the deposited data

Results flagged for a closer look

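In 7 of the 30 tested Fox promoters the stage difference had 1 sign in both lines of a set and the opposite sign in both lines of the other set. None of these contrasts was tested. The share over all promoters was not counted, so the 7 cannot be read as a trait of Fox promoters. Between the DNMT lines and the TET lines, the mean stage differences of Foxa1 differed by 0.68: it was 0.76 in DNMT_KO and 0.41 in DNMT_WT, against -0.11 in TET_KO and -0.08 in TET_WT. The same contrast was -0.26 for Foxc1, -0.26 for Foxd2, -0.19 for Foxo3 and -0.0838 for Foxd1, whose TET lines had the higher differences. Between the knock-out lines and the wild-type lines it was -0.40 for Foxe3 (-0.21 in DNMT_KO and -0.47 in TET_KO, against 0.06 in each wild-type line) and 0.175 for Foxn1.

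In 3 of 60 groups of 4 columns a line stood apart from the others by Dixon's test, which flags about 1 group in 20 by chance. These were Foxe3 in DNMT_KO EpiLC, at 2.26 where the others were 2.15 to 2.17, Foxj1 in TET_WT ESC, at 2.05 where the others were 2.41 to 2.48, and Foxi2 in TET_KO EpiLC, at 1.74 where the others were 1.06 to 1.17.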

How the results depend on the processing

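No paired analysis was possible because the deposited columns carry no replicate numbers that could serve as a block; the stage fit itself sets EpiLC against ESC within each line. The 2 promoter rises became 1 with columns divided by their mean and 0 with at least 1 listed contact, with the number of contacts at 5 or more or with the wild-type lines only. Leaving out each line gave 0 to 1. The 1 fall became 2 with at least 10 contacts (Foxr1 joined) and 2 within 1 Mb (Foxn3 joined), and 0 with at least 1 contact, with the number at 5 or more and with the wild-type lines only. Leaving out each line gave 0 to 0. Few promoters of any kind were called in some of these settings. Over all promoters, at least 1 contact gave 9 rises and 12 falls, and the number at 5 or more gave 0 and 0. The wild-type lines only gave 13 and 16. Over 11 alternatives the adjusted p ran from 0.00631 to 0.478 for Foxo4 (under 0.05 in 5), from 0.00891 to 0.361 for Foxp4 (in 4) and from 0.00393 to 0.454 for Foxs1 (in 4), with no change of sign. The Foxj2 difference turned to -0.0163 within 1 Mb, where fewer contacts enter. The 2 called contacts became 1 with columns divided by their mean and 0 among contacts reaching 5 in at least 2 columns, and leaving out each line gave 0 to 0. Over all contacts, 10 rose among those reaching 5 in at least 2 columns, and 0 to 3 rose with a line left out, against 500. Within 1 Mb, 1 Fox promoter was at least 0.69 lower in TET_KO ESC. Without Foxc1 and Foxo1, an alternative chosen after seeing the data, contacts gained in TET_KO ESC numbered 41, and contacts lost in DNMT_KO ESC numbered 8. The cause of these changes was otherwise not tested. Counts over all promoters moved too: 585 rises and 806 falls became 905 and 442 without scaling, and the rises numbered 146 to 273 without DNMT_WT, TET_WT or TET_KO and 12 without DNMT_KO.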
